A study of Rattus norvegicus with 3 samples.

Results

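The lysosome is the acidic compartment in which proteins, glycans, lipids and nucleic acids taken up by a cell or delivered by autophagy are broken down. Its soluble enzymes are made in the endoplasmic reticulum and delivered mostly by mannose 6-phosphate receptors, while its limiting membrane holds heavily glycosylated proteins, channels, transporters and the proton pump. The transcription factor Tfeb is known to act on many of these genes through an E-box in their promoters. In a newborn retina, microglia and other phagocytes that clear dying cells are rich in lysosomes, but every retinal cell has them. Loss of many of these enzymes causes storage disease in humans, several of which affect the retina.

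The genes described here are 36 lysosomal hydrolases, membrane proteins and partners, chosen by name, and all 36 were found among the 18425 genes of the deposited table. All 36 had a mean of at least 10 reads over the libraries, and all 36 had whole-number counts in each library, whereas 15.5% of all genes had a fractional count in at least 1 library. By role they comprise 8 membrane proteins, 8 glycosidases, 6 enzymes of glycosaminoglycan breakdown, 7 lipid hydrolases and lipid-binding cofactors, 5 peptidases, thioesterase and phosphatases, and a last pair made of progranulin and Tfeb.

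RNA was measured in whole retinas of wild-type Sprague Dawley rats that received 1 µl into the vitreous at postnatal day 1 (P1) and were collected at P4. The buffer library came from eyes given citrate buffer at pH 4.5, the saline library from eyes given saline, and the STZ library from eyes given 10 µg of streptozotocin (STZ), an alkylating nitrosourea linked to glucosamine that had been dissolved in citrate buffer. There was 1 library per condition, the number of animals behind each is not given in the sources used here, and no difference below has a replicate check or a p-value. For its tests of retinal function and morphology the study gave STZ to the right eye and buffer to the left eye of each rat, but whether the sequenced buffer and STZ retinas shared animals is not given. Treatment and dissection cannot be told apart, nor can treatment and animal where the libraries came from different rats.

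The libraries held between 21977846 and 22031241 reads, so that reads can be set side by side almost directly. Wherever 3 values follow each other below, they stand in the order buffer, saline, STZ. The retinal identity of the tissue was plain in all of them: 14 neuronal and progenitor markers summed to 70331 reads in buffer, 67891 in saline and 69073 in STZ, with Crx at 12972, 11780 and 13849 and Otx2 at 13357, 12279 and 11845, each in that order. The summed reads of markers of other cell types differed between the libraries. The 16 microglia and macrophage markers summed to 1671, 2087 and 4763 reads in the same order, and all of them were detected in every library. Lens genes summed to 268, 615 and 3086 reads over 9 genes. The crystallins Cryaa (55, 211 and 928) and Cryba1 (22, 62 and 731) had the most reads in STZ, whereas Mip was nearly level with 73, 73 and 86. Endothelial genes summed to 13595, 14976 and 10093 reads over 6, nearly all of them from Kdr with 13149, 14564 and 9972. That sum therefore follows Kdr, and Cldn5, the next in reads, differed by a larger share with 188, 154 and 37. The saline library stood apart for pigment epithelium, with 964, 2040 and 980 reads over 8 genes and Rpe65 listed at 0 in buffer, and for ciliary and iris epithelium, with 2481, 8322 and 2497 over 6. The 5 blood genes summed to 464, 590 and 343 reads. In bulk tissue, more cells of a type and more RNA per cell cannot be told apart.

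Together the 36 lysosomal genes took 49895 reads in buffer, 51475 in saline and 61033 after STZ. These were 0.227%, 0.234% and 0.277% of all reads. The STZ library thus held 22.1% more lysosomal reads than buffer and 18.3% more than saline, while saline held 3.24% more than buffer. Most of the genes differed little and a few differed by much: Lgmn, Galns, Grn and Acp5 were more than 1.5-fold higher than in buffer, and the median gene was 1.14-fold higher. No member was below 0.65-fold in any comparison.

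The levels of the 36 genes spanned a wide range, here compared as FPKM, which is scaled for transcript length. Cd63, a tetraspanin of late endosomes and lysosomes, was the most abundant, with 216.07 FPKM in buffer, 210.39 in saline and 276.76 in STZ. Psap, the precursor of the saposins that present sphingolipids to their hydrolases, followed with 152.01, 165.15 and 214.18 FPKM. Lamp1 and Atp6ap1 came next, at means over the libraries of 108 and 103 FPKM. The lowest levels were those of Acp5 at a mean of 0.54 FPKM, Sgsh at 1.48, Tfeb at 1.75 and Manba at 2.18. The 12 genes of the highest mean level had a median fold of 1.19 in STZ against buffer, the 12 of middle level 1.12 and the 12 of the lowest level 1.12.

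**Figure D1:**
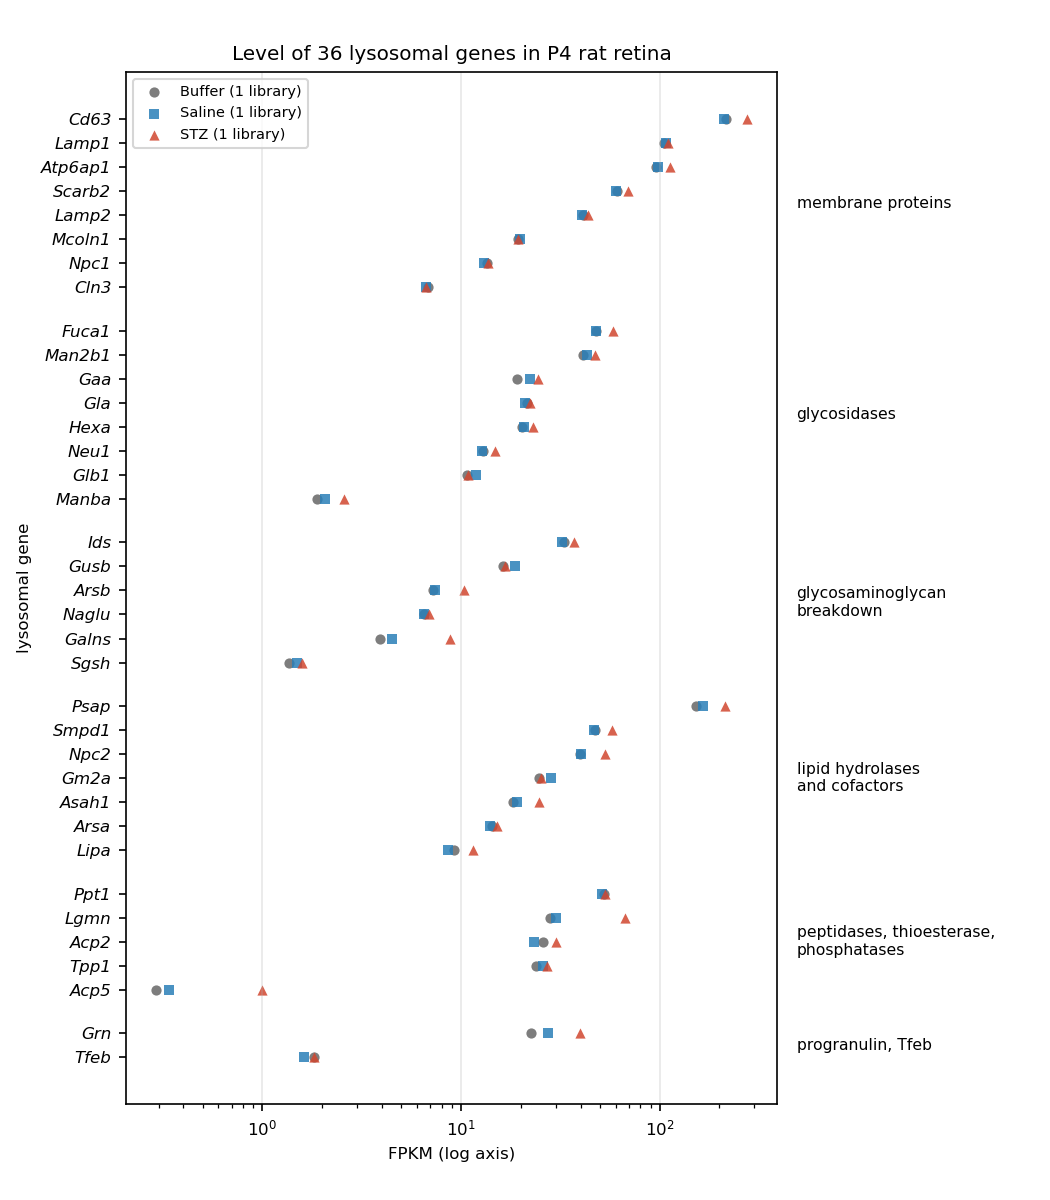
FPKM of the 36 lysosomal genes on a log axis, grouped by role and ordered by mean level, with 1 symbol for each of the buffer, saline and STZ libraries. The STZ symbol lies clear of both controls for Lgmn, Galns, Arsb, Psap, Acp5 and Grn, while the 3 symbols nearly coincide for Lamp1, Mcoln1, Npc1 and Cln3.

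The study asked how the P4 retina differs after STZ, and it called a gene deregulated when the ratio of its FPKM, each raised by 1, was above a threshold a little over 1.5 or below 0.65. By that rule 4 of the 36 lysosomal genes, or 11.1%, were higher in STZ than in buffer and 0 were lower. Over all genes 2.25% passed the upper threshold, and 2.58% of the 14885 genes with a mean of at least 10 reads. Against saline 2 of the 36 passed the upper threshold, where 2.04% of all genes and 2.37% of those with at least 10 reads did, and 0 passed the lower, beside 1.75% and 1.95%. The lower threshold against buffer was passed by 1.04% of all genes and 1.15% of those with at least 10 reads. Between the controls 0 of the 36 passed the upper threshold, beside 1% of all genes and 1.01% of those with at least 10 reads, and 0 passed the lower threshold, beside 0.429% and 0.443%. The thresholds left out most of the difference in lysosomal reads, because without the 4 genes the remaining 32 still held 18.3% more reads in STZ than in buffer.

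A finer measure was the count ratio, a gene's reads divided by the library total in one condition over the same in the other. Its 95% interval is an exact Clopper-Pearson interval and covers counting error only. It takes the library totals as the only scale, and no interval was computed with TMM or DESeq2 factors. In STZ against buffer the interval lay above 1 for 24 of the 36 genes, or 66.7%, and below 1 for 0. Of the genes with a mean of at least 10 reads, 26.2% lay above 1 and 18.8% below. In STZ against saline it lay above 1 for 21 of the 36, beside 26.9% of genes, and below 1 for 2, beside 23.5%. Between saline and buffer it lay above 1 for 5 and below 1 for 1, beside 15.9% and 12% of genes. The fold itself was above 1 for 34 of 36 in STZ against buffer, beside 56% of genes, and this count was 28 with TMM scaling and 29 with DESeq2 size factors. Against saline it was above 1 for 31, beside 52.1%, and between saline and buffer for 22, or 19 with either scaling, beside 54.7%. The median log2 fold of the members was 0.18 against buffer, 0.17 against saline and 0.03 between the controls, where the genes with at least 10 reads had medians of 0.028, 0.013 and 0.016. Both comparisons with STZ rest on the same STZ library.

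**Figure D2:**
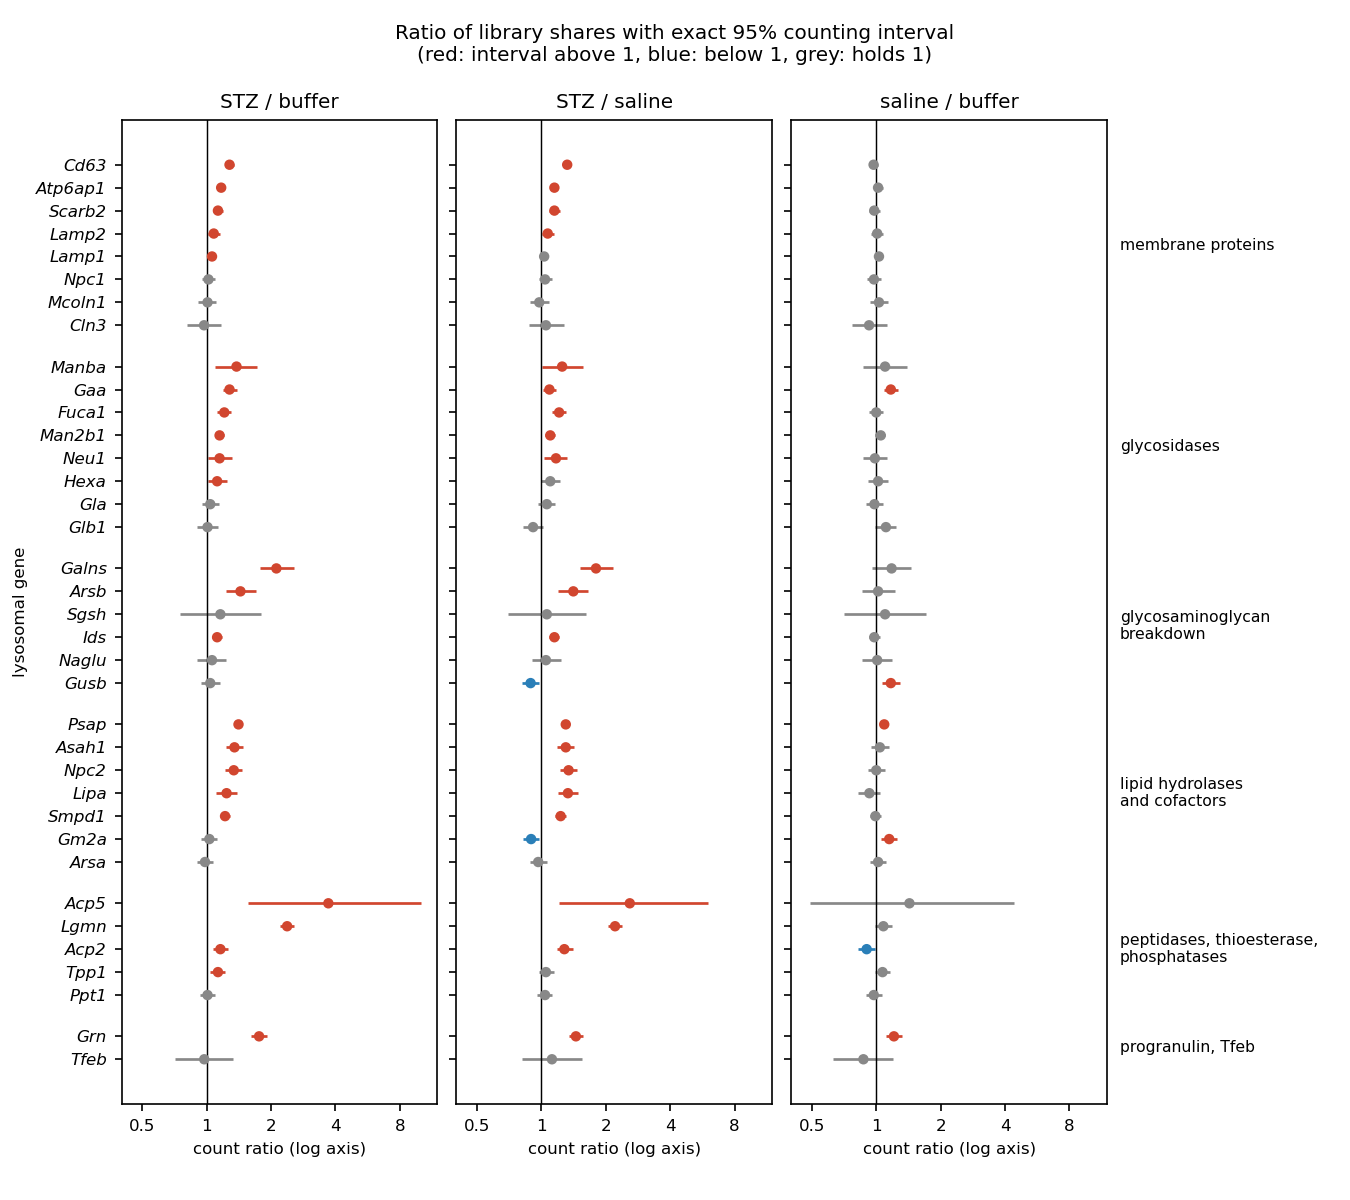
Count ratio of each of the 36 lysosomal genes on a log axis, with 1 panel per comparison (STZ over buffer, STZ over saline, saline over buffer) and bars for the exact 95% counting interval. Intervals above 1 are red (24, 21 and 5 genes), those below 1 are blue (0, 2 and 1) and the rest are grey; the widest bar is that of Acp5, which has the fewest reads.

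Legumain, encoded by Lgmn, is the asparaginyl endopeptidase that cleaves and activates other lysosomal proteases, and its gene had the largest fold of the 36 on the FPKM + 1 scale. By the count ratio against buffer Acp5, with far fewer reads, was higher, and by the difference in reads Psap was. The Lgmn reads numbered 975 for buffer, 1050 for saline and 2326 for STZ. The STZ library was far above both controls, which lay close together. The fold was 2.33 against buffer and 2.17 against saline, and the count ratio against buffer was 2.38 (95% counting interval 2.21 to 2.57). Only 98 of the 14885 genes with at least 10 reads had a larger fold against buffer, and 91 against saline. Between saline and buffer the ratio was 1.08 (0.987 to 1.18), within counting error.

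The other peptidases and phosphatases were uneven. Acp5, the tartrate-resistant acid phosphatase of macrophages and osteoclasts, had only 7 reads for buffer, 10 for saline and 26 for STZ. At that depth its count ratio of 3.71 against buffer had an interval of 1.57 to 10.1. Its fold only just passed the threshold, was 1.53 and short of it with TMM scaling or DESeq2 size factors, and was 2.79 with a pseudocount of 0.1 in place of 1. Acp2, the other lysosomal acid phosphatase, had 1049, 946 and 1218 reads, so that STZ was 1.16-fold above buffer and 1.28-fold above saline, with saline the lowest library. Tpp1, the tripeptidyl peptidase lost in a form of neuronal ceroid lipofuscinosis, had 1175, 1261 and 1328 reads and a ratio of 1.13 (1.04 to 1.22) against buffer but 1.05 (0.972 to 1.14) against saline. Ppt1, the palmitoyl-protein thioesterase lost in another form, was nearly level with 1208, 1176 and 1221 reads.

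Grn encodes progranulin, a secreted and lysosomal protein that is processed into granulins. It had 955 reads in buffer, 1155 in saline and 1684 after STZ. The 3 libraries were all apart, and saline lay above buffer by more than counting error, with a ratio of 1.21 (1.11 to 1.32). As a result the fold of 1.73 against buffer passed the threshold, and the fold of 1.44 against saline did not. The transcription factor gene Tfeb had 85, 74 and 83 reads. Its count ratio in STZ against buffer was 0.975 with an interval of 0.712 to 1.33, so no difference inside these bounds could be detected.

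Among the enzymes that degrade glycosaminoglycans, both N-acetylgalactosamine sulfatases stood above the rest. Galns, which removes sulfate from keratan sulfate and chondroitin 6-sulfate, had 173 reads in buffer, 204 in saline and 368 in STZ. Its fold was 2.01 against buffer and 1.79 against saline, past the threshold in both, with a count ratio of 2.12 (1.77 to 2.56) against buffer. Arsb, which removes the 4-sulfate of dermatan and chondroitin sulfate, had 259, 265 and 374 reads, and its ratios of 1.44 (1.23 to 1.7) and 1.41 (1.2 to 1.65) stayed short of the thresholds on the fold scale. The controls were close for Arsb and within counting error for Galns.

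The heparan sulfate enzymes of the same group differed less. Ids, the iduronate sulfatase, had 2547, 2493 and 2864 reads and a ratio of 1.12 (1.06 to 1.18) against buffer. Naglu, which removes N-acetylglucosamine, had 323, 325 and 342 reads, and Sgsh, the sulfamidase, had 42, 46 and 49, both with intervals that held 1. Gusb, the β-glucuronidase, was highest in saline, with 786, 918 and 819 reads, and its ratio was 1.04 (0.942 to 1.15) in STZ against buffer and 0.89 (0.809 to 0.979) against saline.

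None of the 7 lipid-degrading members passed a threshold, but the STZ library held 30.9% more of their reads than buffer. The interval lay above 1 for 5 of them, beside 26.2% of genes with at least 10 reads. Psap alone had 7807 reads in buffer, 8469 in saline and 11016 in STZ, a ratio of 1.41 (1.37 to 1.45) against buffer and 1.3 (1.26 to 1.34) against saline. Saline was itself 1.09 (1.05 to 1.12) times buffer. Psap accounted for 3209 of the net gain of 11138 lysosomal reads in STZ over buffer, or 28.8%, and with Lgmn, Cd63 and Grn for 55.1%.

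Asah1, the acid ceramidase, had 819, 851 and 1106 reads and a ratio of 1.35 (1.23 to 1.48) against buffer. Npc2, which hands cholesterol to Npc1, had 900, 900 and 1205 reads and the ratio 1.34 (1.22 to 1.46) against either control. Lipa, the acid lipase that frees cholesterol from its esters, had 600, 557 and 745 reads, and Smpd1, the acid sphingomyelinase, had 2166, 2144 and 2640. In these 4 genes STZ was above both controls, and the controls differed by less than the counting error.

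Gm2a and Arsa did not follow. Gm2a, the activator protein that presents GM2 ganglioside to β-hexosaminidase, had 963, 1104 and 991 reads, with saline the highest library. Its ratio was 1.03 (0.939 to 1.12) against buffer and 0.895 (0.821 to 0.977) against saline. Arsa, the sulfatase of sulfatide, had 1002, 1019 and 987 reads, a ratio of 0.983 (0.9 to 1.07), while its FPKM was 14.38, 14.07 and 15.26, so that the direction of its small difference turned with the unit.

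**Figure D3:**
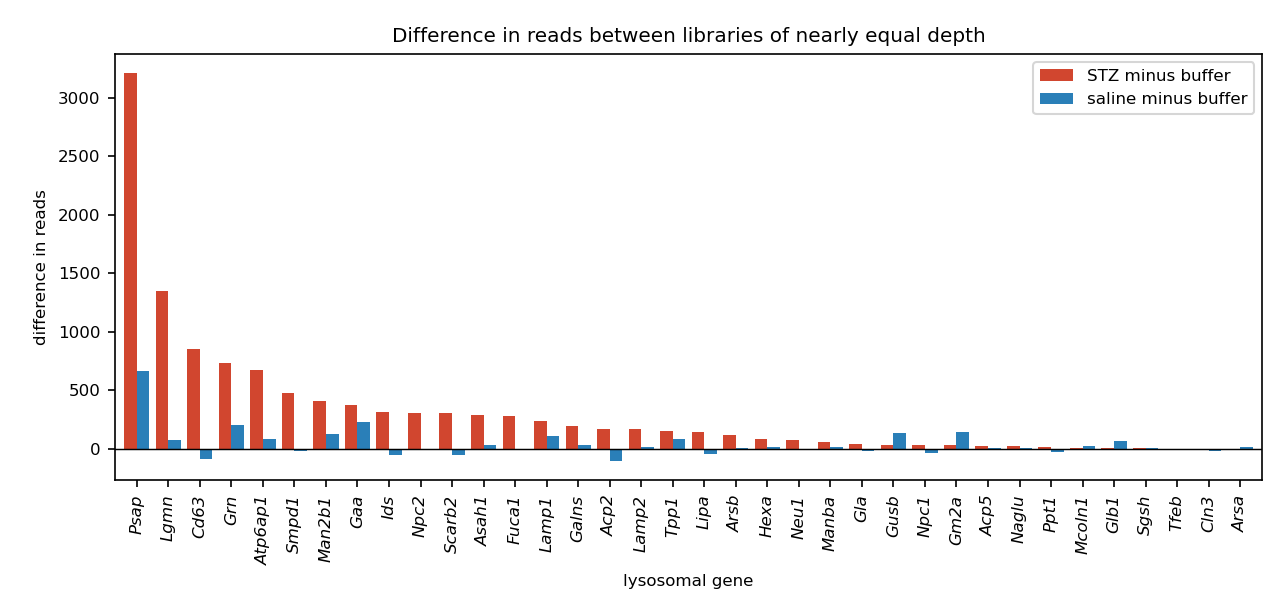
Difference in reads of each lysosomal gene between the STZ and buffer libraries (red bars) and between the saline and buffer libraries (blue bars), ordered by the first. Psap (3209 reads) and Lgmn (1351) had the largest gains in STZ over buffer, and Gusb, Gm2a, Glb1, Mcoln1 and Arsa had more reads in saline than in STZ.

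All 8 glycosidases had folds above 1 in STZ against buffer, between 1.01 and 1.27, beside 56% of genes with at least 10 reads. None passed the threshold. Glb1 fell to 0.984 with TMM scaling, and against saline 7 of the 8 were above 1. The interval against buffer lay above 1 for 6 of them, beside 26.2% of genes. Gaa, the acid α-glucosidase that degrades glycogen, had 1309, 1537 and 1680 reads, with saline 1.17 (1.09 to 1.27) times buffer, so that the ratio of STZ was 1.28 (1.19 to 1.38) against buffer and 1.09 (1.02 to 1.17) against saline. Fuca1, the α-fucosidase, had 1328, 1327 and 1608 reads and a ratio of 1.21 (1.12 to 1.3) against both controls. Manba, the β-mannosidase, had 142, 156 and 196 reads, and Man2b1, the lysosomal α-mannosidase, had 2666, 2789 and 3075.

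The remaining glycosidases had folds of at most 1.14 against buffer, that of Neu1, which is near the 1.15 of Man2b1. Hexa, the α subunit of β-hexosaminidase, had 687, 701 and 772 reads with a ratio of 1.12 (1.01 to 1.25) against buffer, and Neu1, the lysosomal sialidase, had 483, 476 and 558 with 1.15 (1.02 to 1.31). Gla, the α-galactosidase of globosides, had 906, 888 and 943 reads, within counting error of both controls. Glb1, the β-galactosidase, had 613, 678 and 621 reads and was highest in saline, although its interval in saline against buffer, 0.991 to 1.24, held 1.

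The membrane proteins had the smallest median fold of the 6 roles, 1.05 against buffer and 1.05 against saline. Lamp1 and Lamp2, the major glycoproteins of the lysosomal membrane, had 4087, 4196 and 4326 reads and 2059, 2074 and 2224 reads. Their ratios against buffer were 1.06 (1.01 to 1.1) and 1.08 (1.02 to 1.15), small but above counting error when scaled by library totals alone. That of Lamp1 against saline, 1.03 (0.985 to 1.07), was within it. With TMM scaling the folds of Lamp1 and Lamp2 against buffer fell from 1.06 and 1.05 to 1.03 and 1.02. Npc1, the cholesterol exporter that receives its cargo from Npc2, had 1458, 1422 and 1488 reads and a ratio of 1.02 (0.947 to 1.1). The upper bound for Npc1 thus lay below the lower bound of 1.22 for Npc2. Mcoln1, the calcium channel of the lysosomal membrane, had 784, 809 and 792 reads, and Cln3, the product of which is lost in juvenile neuronal ceroid lipofuscinosis, had 241, 223 and 235.

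Cd63, Atp6ap1 and Scarb2 were the membrane genes with the larger ratios. Cd63 had 3020, 2933 and 3873 reads and a ratio of 1.28 (1.22 to 1.34) against buffer and 1.32 (1.26 to 1.38) against saline. Atp6ap1, an accessory subunit of the proton pump, had 3907, 3986 and 4583 reads with 1.17 (1.12 to 1.22) against buffer, and Scarb2, the receptor that carries β-glucocerebrosidase to the lysosome, had 2364, 2313 and 2667 with 1.13 (1.07 to 1.19). In each the STZ library was the highest and the controls differed by less than the counting error.

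Between the control libraries the differences were small, with folds from 0.909 for Acp2 to 1.2 for Grn. Saline exceeded buffer beyond counting error for Grn, Gaa, Gusb, Gm2a and Psap, and lay below it for Acp2. In the same comparison 5 of the 8 pigment epithelium markers and 3 of the 6 ciliary and iris markers passed the upper threshold, beside 1% of all genes. Pmel had 252, 940 and 240 reads and Aldh1a1 had 1904, 6838 and 1904. The others did not, and Ttr with 477, 398 and 456 reads and Cdo1 with 323, 274 and 323 were lowest in saline. The part of these cells in the differences between the controls was not tested. For Gusb and Gm2a saline was the highest library, and buffer and STZ lay within counting error of each other.

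Other genes of lysosome formation and use, from lists of the same pathway, had list medians between 0.984-fold and 1.36-fold in STZ against buffer. The 11 cathepsins, the main lysosomal proteases, had a median fold of 1.36 in STZ against buffer, and 5 of them passed the threshold, with Ctsz at 2.97 and Ctsb, Ctsd, Ctss and Ctsc at 1.98, 1.99, 2.22 and 1.62. The 15 further hydrolases and cofactors had a median fold of 1.2, and 2 passed the threshold. Galc, the galactosylceramidase, was among these at 1.61 (185, 230 and 342 reads). Against saline the median was 1.26 for the cathepsins with 4 past, and 1.1 for the further hydrolases with 1 past. Between the controls the medians were 1.17 and 1.1, with 1 and 0 past the upper threshold, beside 1.01% of genes with at least 10 reads. The interval between the controls lay above 1 for 6 cathepsins and 7 further hydrolases, beside 15.9% of those genes. It lay below 1 for 1 and 0, beside 12%. Of genes with at least 10 reads 2.58% passed against buffer and 2.37% against saline. Of 15 further membrane proteins 2 passed against buffer, Cd68 with 20, 41 and 107 reads and Laptm5 with 88, 109 and 259. Both are typical of macrophages. Laptm5 is also among the microglia markers.

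The V-ATPase is the proton pump that acidifies the lysosome. Of 17 V-ATPase genes 0 passed a threshold in STZ against buffer. Of genes with at least 10 reads 2.58% passed the upper and 1.15% the lower, so 0 is near that share. The interval lay above 1 for 13 and below 1 for 2, beside 26.2% and 18.8% of genes with at least 10 reads. The folds ran from 0.862 for Atp6v0a2 to 1.31 for Atp6v1d, which had 1197, 1138 and 1583 reads, and the median fold was 1.14. Atp6v0d2 had 0, 2 and 2 reads. The 9 genes of mannose 6-phosphate tagging and sorting had a median fold of 0.984, with 0 past a threshold, again near that share. Their interval lay above 1 for 1 and below 1 for 3. The folds ran from M6pr, the cation-dependent receptor, at 0.736 to Gnptab, a subunit of the tagging enzyme, at 1.12. M6pr and Gnptab have fractional counts, so their values carry an error of estimation as well.

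The 16 Tfeb relatives and mTORC1 regulators had a median fold of 1.03 against buffer with 0 past a threshold. Their interval lay above 1 for 4 and below 1 for 1, beside 26.2% and 18.8% of genes with at least 10 reads. Rragd, a GTPase that recruits mTORC1 to lysosomes, was the highest of them at 1.3, with 129, 100 and 177 reads, and Lamtor5 the lowest at 0.912. Against saline Rragd had a fold of 1.6. The 16 autophagy genes had a median of 1.05, with 0 past a threshold, from Wipi1 at 0.802 to Becn1 at 1.17, both of which also have fractional counts. The interval of the autophagy genes lay above 1 for 3 and below 1 for 4. In both lists 0 past a threshold is near the share of genes with at least 10 reads, 2.58% above and 1.15% below. Differences between lists were not tested.

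**Figure D4:**
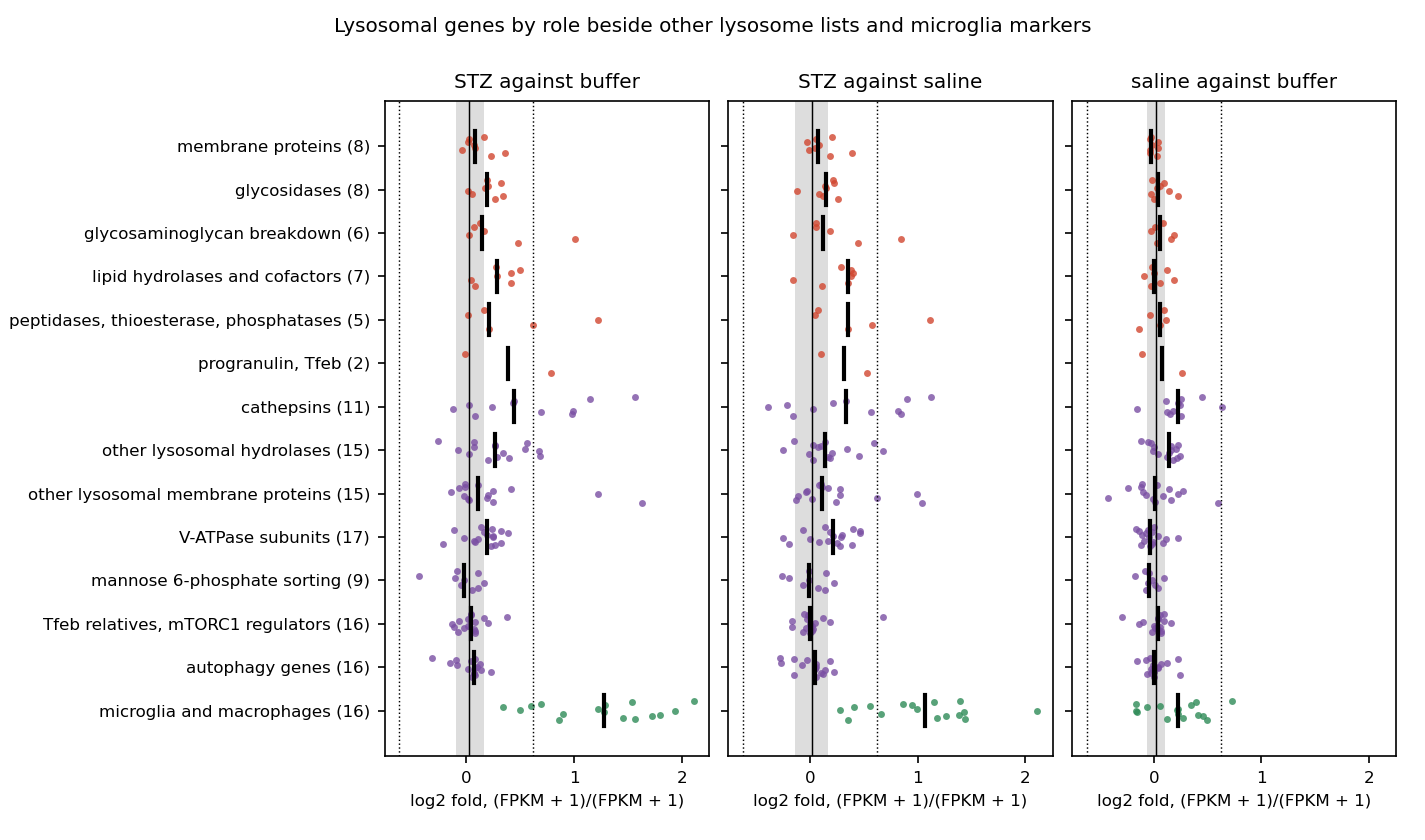
Log2 fold of each gene in the 3 comparisons, with the 36 lysosomal genes split by role (red), other lysosome and autophagy lists (purple) and microglia markers (green). Black bars are list medians. The thin line and grey band are the median and middle 50% of genes with at least 10 reads, and dotted lines are the thresholds. Of the lists drawn, the microglia markers have the highest median in both comparisons with STZ (2.43-fold and 2.1-fold). The lens markers, not drawn, have higher medians (8.96-fold and 5.29-fold).

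The median fold of the microglia markers was 2.43 against buffer, 2.1 against saline and 1.17 between the controls. Against buffer 13 of the 16 passed the upper threshold, beside 2.58% of genes with at least 10 reads. The interval lay above 1 for 16 of 16 in both comparisons with STZ, beside 26.2% of those genes against buffer and 26.9% against saline. Csf1r, the receptor on which microglia depend, had 449, 540 and 905 reads, and C1qb had 205, 288 and 722. None of the 36 lysosomal genes is in this marker list. The 9 lens markers had higher median folds, 8.96 against buffer and 5.29 against saline. Of them 7 and 6 passed the upper threshold, beside 2.58% and 2.37% of genes with at least 10 reads. The part of microglia in the lysosomal difference was not tested, and neither was that of the cells behind the lens reads.

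Since Tfeb is known to bind the E-box CACGTG, the promoters of the genes were read for it in the RefSeq windows of assembly GRCr8, which run from 250 bases before to 50 bases after each start site. The word equals its own reverse complement, so both strands are covered at once. At least 1 window was found for 30 of the 36 genes, and 7 of the 30, or 23.3%, held it: Lamp1, Cd63, Cln3, Mcoln1, Glb1, Gaa and Sgsh. Of the 11543 genes with a window and at least 10 mean reads, 9.75% held it, and 7.08% of all 27457 genes with a window. The longer TCACGTGA, which contains CACGTG and also equals its reverse complement, was in 3 of the 30, Lamp1, Cln3 and Mcoln1, beside 1.71% of the expressed genes.

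The 250 bases before the start are shown for the 4 holders with the highest fold in STZ against buffer, because these stretches show how differently the word is placed; capitals mark CACGTG, or TCACGTGA where the longer word is present. They lie at chr7:1921894-1922143 on the plus strand for Cd63, chr10:105028105-105028354 on the plus strand for Gaa, chr10:105112010-105112259 on the minus strand for Sgsh and chr16:83075064-83075313 on the minus strand for Lamp1, all in GRCr8 and written 5′ to 3′ on the strand of the gene.
Cd63: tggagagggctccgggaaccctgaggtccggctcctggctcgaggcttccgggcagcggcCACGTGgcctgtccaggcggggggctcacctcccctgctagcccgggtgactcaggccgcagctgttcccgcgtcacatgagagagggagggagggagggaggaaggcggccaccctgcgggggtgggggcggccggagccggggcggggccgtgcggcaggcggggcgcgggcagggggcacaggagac
Gaa: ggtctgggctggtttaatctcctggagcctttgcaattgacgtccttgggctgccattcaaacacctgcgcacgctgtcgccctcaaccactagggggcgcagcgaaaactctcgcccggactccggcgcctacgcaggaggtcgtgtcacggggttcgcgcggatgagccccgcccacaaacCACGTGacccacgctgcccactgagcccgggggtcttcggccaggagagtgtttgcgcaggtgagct
Sgsh: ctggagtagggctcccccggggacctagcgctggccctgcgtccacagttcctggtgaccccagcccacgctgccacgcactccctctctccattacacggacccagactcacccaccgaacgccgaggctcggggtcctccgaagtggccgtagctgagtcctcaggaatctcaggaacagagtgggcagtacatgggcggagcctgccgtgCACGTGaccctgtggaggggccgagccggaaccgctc
Lamp1: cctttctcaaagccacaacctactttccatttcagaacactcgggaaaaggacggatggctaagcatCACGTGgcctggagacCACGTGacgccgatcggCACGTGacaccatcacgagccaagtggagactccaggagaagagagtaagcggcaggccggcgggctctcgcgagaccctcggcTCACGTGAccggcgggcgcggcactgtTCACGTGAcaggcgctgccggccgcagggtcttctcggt

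Cd63 holds the word once, 190 bases before its start, Gaa once at 67 and Sgsh once at 37, whereas Lamp1 holds it 5 times, between 183 and 38 bases before its start. A match is a description of letters and not of a bound site. The 7 holders had a median fold of 1.06 in STZ against buffer, from 0.972 to 1.28, and 0 of them passed the threshold. The 23 genes with a window and no match had a median of 1.15 and included the 4 that passed, Lgmn, Galns, Grn and Acp5. Of genes with at least 10 reads 2.58% passed, so 0 of 7 is near that share. The difference between holders and the others was not tested. The median GC content of the windows was 59.3%, beside 60.3% for expressed genes.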

How the data were processed

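Whole-retina RNA libraries (1 each for buffer, saline and STZ) were grouped by their GEO treatment labels. The authors trimmed poor-quality 5′ ends, mapped with TopHat2, discarded reads with several genomic locations and computed FPKM with an R script; the submitters' processing notes name the build rn6 and FastQC. The counter and the gene annotation are not given in the sources used here. The deposited table holds FPKM, TPM and an estimated count per gene and library, and the single-library tables repeat them without any difference. The deposited TPM were used only as an alternative. The estimated counts were rounded to whole numbers for count ratios and called reads in the text. Library totals were 21992701 in buffer, 21977846 in saline and 22031241 in STZ.

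Following the study's methods, 1 was added to each FPKM before the ratio was taken, and the thresholds were 1.54 and 0.65. The added 1 pulls the folds of low genes toward 1. Count ratios carry exact Clopper-Pearson 95% intervals. Since reads carry no molecular identifiers and may be PCR copies, intervals cover counting error only. No p-value was computed, because a condition has 1 library. TMM factors (edgeR 4.0.16) and size factors (DESeq2 1.42.0) in R 4.3.3 served only for scaling, and the rest was done in Python 3.11.15 with scipy 1.17.1. The calculations were tested on simulated data.

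The genes and lists were chosen by name with earlier results of these data known, and a list's median or count is a description beside that of all genes. Every member could be named, with, from other lists, genes past a threshold, the highest and lowest fold, and the markers with most reads or listed at 0. Promoter sequences are those of RefSeq (GRCr8), matched by gene identifier, and no coordinate of the files was used. Promoters could be shown for up to 6 members that hold CACGTG, in order of fold, of which the first 4 are shown. No protein sequence was used here. Some genes of the other lists are not reported here by name.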

Additional observations from a re-analysis of the deposited data

How the results depend on the processing

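Of the counts of members past a threshold, those in STZ against buffer lay at 3 or 4 with a pseudocount of 0.1, TMM scaling, DESeq2 size factors, TPM, CPM or a minimum mean of 10 reads, and those in STZ against saline at 2 or 3. With thresholds of 2 and 0.5 the counts fell to 2 against buffer and 1 against saline. With a counting interval that excludes 1 in place of a threshold they were 24 against buffer, 23 against saline and 6 between the controls, because the interval marks small differences of abundant genes. Acp5 passed against buffer with FPKM as deposited and fell to 1.53, short of the threshold, with TMM scaling or DESeq2 size factors. The median log2 fold of the members lay between 0.146 and 0.202 against buffer, between 0.151 and 0.175 against saline and between 0.008 and 0.031 between the controls. Of 288 values of single members under the alternatives, 9 moved by more than the counting error, all with saline or the mean of both controls in place of buffer. Gm2a and Gusb, past no threshold, then changed direction, to 0.898 and 0.895 with saline as the control. Without buffer as the control, Grn had a fold of 1.44 against saline and 1.57 against the mean of both controls. Depth limits Acp5, Sgsh and Tfeb, which had at most 26, 49 and 85 reads. No paired analysis was possible because each condition has 1 library, and no replicate could be left out.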
